A study of Mus musculus with 28 samples.

Results

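The genes described here are 10 transcripts by which microglia are commonly recognised, out of 43629 genes in the count table. They were taken as a named list, by no rule on measured values, but earlier results of these data were known when they were chosen. The homeostatic genes are P2ry12, Tmem119, Cx3cr1 and Csf1r, the activated genes are Trem2, Tyrobp, Cst7, Itgax and Cd68, and Aif1 marks microglia and macrophages in general. All 10 were found in the table, and all 10 passed the filter on low counts in the input libraries.

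The study followed cortical layer 5 neurons in experimental autoimmune encephalomyelitis (EAE), an immune attack on myelin used as a model of multiple sclerosis. Every mouse, healthy ones included, carried the Glt25d2 BacTRAP transgene, in which the Glt25d2 (Colgalt2) locus drives a tagged ribosome, meant for these neurons. Each phase gave immunoprecipitated (IP) RNA from the tagged ribosomes and input RNA from the cortex before the pull-down. There were 5 IP and 5 input libraries from acute EAE (day 15 after immunisation with MOG35-55), 4 and 4 from chronic EAE (day 30), and 5 and 5 from healthy mice. Strain, age and sex are not given in the sources used here, nor whether a library is 1 animal. Each p-value therefore sets a difference between groups against the spread among libraries of a group, which may be technical spread.

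Microglia are the resident macrophages of the brain and depend on the receptor Csf1r for survival. In undisturbed tissue they express the ADP receptor P2ry12, the chemokine receptor Cx3cr1 and the membrane protein Tmem119, and around damaged myelin or dying cells Trem2, a lipid receptor, signals through its adaptor Tyrobp towards a state marked by Cst7, Itgax and lysosomal proteins such as Cd68. In EAE, monocytes and other macrophages that enter from blood and borders also express Tyrobp, Itgax, Cd68, Aif1 and Csf1r, so that RNA of bulk cortex holds the sum of these cells. Fewer cells of a type and less RNA per cell cannot be told apart in such samples.

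Promoter sequence was given for 7 of the 10 members: P2ry12, Cx3cr1, Trem2, Cst7, Itgax, Cd68 and Aif1. The 250 bases before each RefSeq start (build GRCm38.p6) were searched on both strands for AGGAAG, the core bound by PU.1 (the product of Spi1), for GAAANNGAAA, the interferon-stimulated response element core bound by IRF proteins, for TTCNNNGAA, the gamma-activated site bound by STAT proteins, and for the E-box CACGTG. The 4 promoters that held a match are shown because their genes behaved unlike each other below: P2ry12 fell in acute EAE, Cst7 and Aif1 rose, and Trem2 passed the test in no contrast. They lie at chr3:59262986-59263235 (minus strand) for P2ry12, chr2:150570165-150570414 (plus strand) for Cst7, chr17:35176053-35176302 (minus strand) for Aif1 and chr17:48346151-48346400 (plus strand) for Trem2. Each reads 5′ to 3′ on the gene's strand, with the matches in capitals.
P2ry12: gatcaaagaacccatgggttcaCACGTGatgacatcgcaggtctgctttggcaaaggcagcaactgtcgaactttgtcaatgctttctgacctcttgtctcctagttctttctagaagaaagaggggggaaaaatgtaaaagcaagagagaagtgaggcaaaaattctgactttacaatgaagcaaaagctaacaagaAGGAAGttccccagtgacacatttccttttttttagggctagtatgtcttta
Cst7: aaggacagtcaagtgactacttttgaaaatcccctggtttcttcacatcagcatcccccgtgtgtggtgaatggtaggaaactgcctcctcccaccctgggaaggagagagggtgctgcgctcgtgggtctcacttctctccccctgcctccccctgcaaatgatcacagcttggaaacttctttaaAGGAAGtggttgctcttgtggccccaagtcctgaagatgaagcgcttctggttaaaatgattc
Aif1: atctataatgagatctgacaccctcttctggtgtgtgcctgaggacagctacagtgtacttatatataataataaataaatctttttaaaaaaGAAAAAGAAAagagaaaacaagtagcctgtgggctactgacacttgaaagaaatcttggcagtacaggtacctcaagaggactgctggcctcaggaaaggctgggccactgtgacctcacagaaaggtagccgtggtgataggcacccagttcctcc
Trem2: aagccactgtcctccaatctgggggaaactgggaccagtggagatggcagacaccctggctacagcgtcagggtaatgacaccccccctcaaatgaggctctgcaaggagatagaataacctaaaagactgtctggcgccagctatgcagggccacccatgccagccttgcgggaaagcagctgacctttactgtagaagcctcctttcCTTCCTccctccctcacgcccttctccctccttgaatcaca

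The PU.1 core stood once in P2ry12, first base 52 bases before the start (-52), once in Cst7 (-63) and once, on the other strand, in Trem2 (-41). Of 32851 mouse promoters of this length, 29.5% held it. P2ry12 also held the E-box (-228), found in 6.02% of promoters, and Aif1 held the interferon-stimulated response element core (-157), found in 2.98%. The gamma-activated site, in 7.02% of promoters, was in none of the 7, and Itgax, Cx3cr1 and Cd68 had no match to any of the 4 motifs. None of the matches overlapped another, and a match describes letters only.

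Input and IP libraries differed in quality before any member was considered. Input libraries held 17848273 to 27915940 counts and 20714 to 21734 detected genes. IP libraries held 6198088 to 21229550 counts and 9566 to 17995 detected genes, and edgeR's common dispersion gave a biological coefficient of variation of 1.06 in IP and 0.101 in input. All 52 pairs of libraries of a group differed beyond sampling noise. The results on phase therefore rest on input, and IP follows separately. Levels are CPM, the counts of a gene brought to a common library size, with sizes scaled by the trimmed mean of M values. Tests are edgeR's quasi-likelihood test on the counts with Benjamini-Hochberg adjustment over all genes of a fit, and calls were made where the adjusted p was under 0.05.

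In acute EAE 6 of the 10 members rose in input RNA and 1 fell. Tyrobp, Cst7, Itgax, Aif1, Csf1r and Tmem119 rose, P2ry12 fell, and Cx3cr1, Trem2 and Cd68 did not pass the test. Over all 16381 genes tested in input, 11.1% were called higher and 8.59% lower in this contrast. The median log2 change was 0.84 over the members and -0.01 over all genes. Of the 4 homeostatic genes, 2 rose, 1 fell and 1 was not called.

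**Figure D1:**
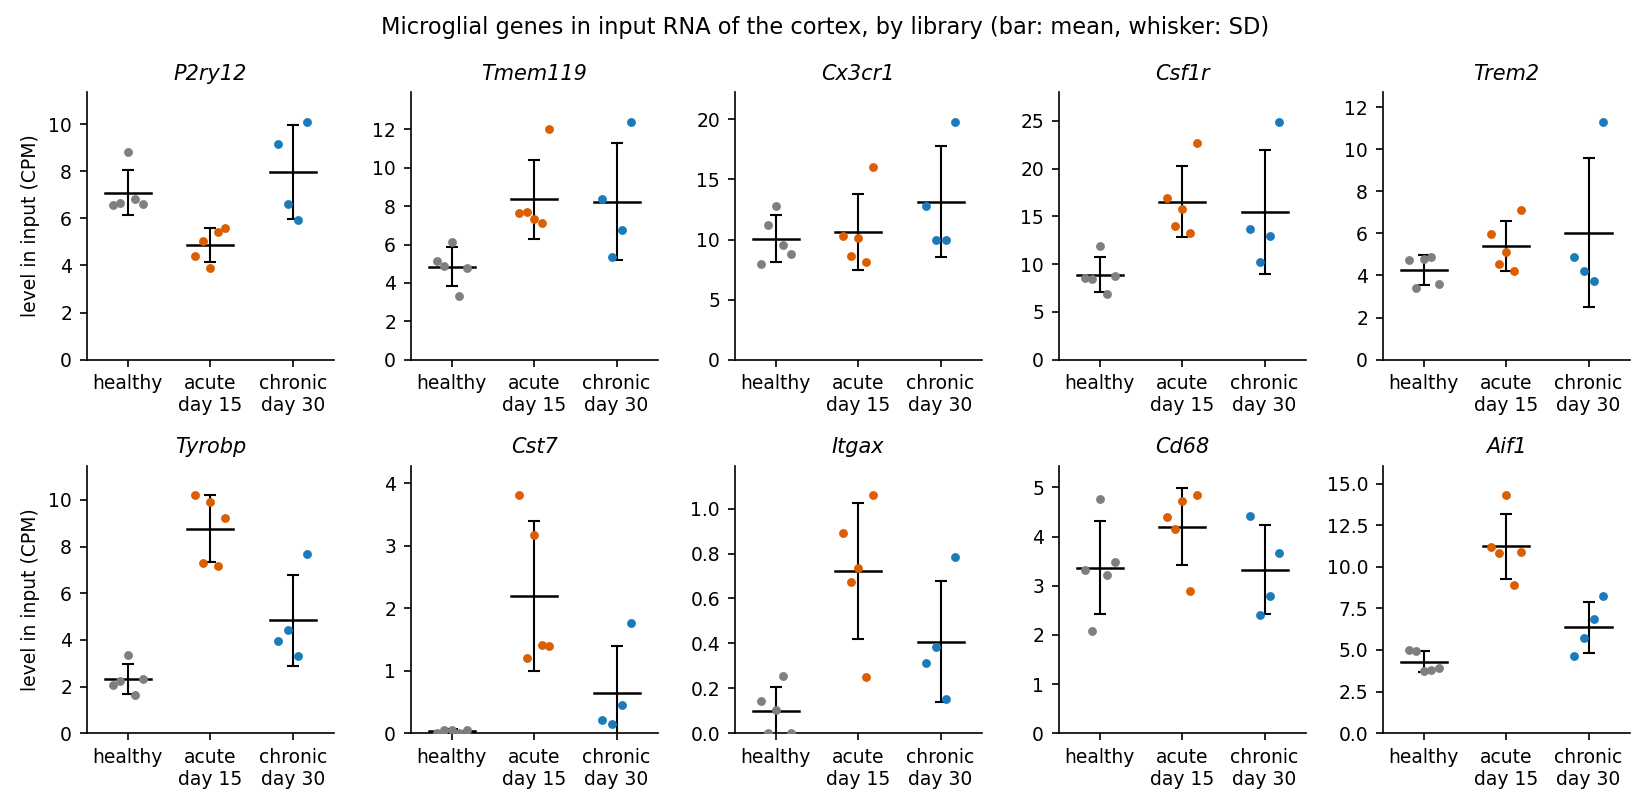
Level of each microglial gene (CPM, linear axes from 0, each with its own scale) in every input library of the healthy, acute and chronic groups, with the mean as a bar and the SD as a whisker. The 5 acute libraries of Tyrobp and Aif1 lie above all healthy ones, those of P2ry12 lie below all healthy ones, and replicate 4 of the chronic group is the highest chronic library for 9 of the 10 genes.

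P2ry12 encodes the ADP receptor by which resting microglia sense injury. It had 4.40, 5.05, 3.91, 5.43 and 5.61 CPM in acute input, against 6.57, 6.65, 8.83, 6.82 and 6.61 CPM in healthy input. Every acute library was below every healthy one. The means were 4.88 ± 0.715 CPM in acute and 7.09 ± 0.977 CPM in healthy input (SD, n = 5 each), and P2ry12 fell by 0.54 ± 0.16 (SE) on the log2 scale (edgeR quasi-likelihood test, adjusted p = 0.0192). Without acute replicate 3 the adjusted p was 0.0571 and without healthy replicate 3 it was 0.0522, in a range of 0.00744 to 0.0571 over 19 alternatives.

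Tmem119, a membrane protein used to tell microglia from other macrophages, went the other way. It had 7.62, 7.68, 7.31, 7.13 and 12 CPM in acute input, against 5.15, 4.88, 6.12, 3.31 and 4.79 CPM in healthy input. The groups did not overlap, although acute replicate 5 stood well above its own group. The fitted log2 change was 0.78 ± 0.22 (edgeR quasi-likelihood test, adjusted p = 0.0216). The call was lost without acute replicate 5 (adjusted p = 0.0509), without healthy replicate 4 (0.0530) and with no filter on low counts (0.0522), in a range of 0.00283 to 0.053 over the alternatives.

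Csf1r, the receptor for Csf1 and Il34, had 16.9, 14, 15.8, 13.3 and 22.7 CPM in acute input, against 8.51, 8.41, 11.9, 6.87 and 8.74 CPM in healthy input. Every acute library exceeded every healthy one. The log2 change was 0.89 ± 0.24 (edgeR quasi-likelihood test, adjusted p = 0.0197), a 1.85-fold difference that passed in all 19 alternatives. The adjusted p ranged from 0.00113 to 0.05 over these, and the highest, without acute replicate 5, reached the threshold after rounding. Exons of Csf1r overlap those of Hmgxb3, on the other strand, over 871 bases, and reads of the genes cannot be told apart there because counting ignored strand.

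Cx3cr1, the receptor for the neuronal chemokine Cx3cl1, had 10.3, 8.66, 10.1, 8.13 and 16.0 CPM in acute input, against 7.99, 11.2, 12.8, 9.57 and 8.79 CPM in healthy input. The groups overlapped. The log2 change of 0.0762 ± 0.23 did not pass (edgeR quasi-likelihood test, adjusted p = 0.859).

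Among the activated genes, Tyrobp gave the smallest adjusted p. Tyrobp is the adaptor (DAP12) that carries the signal of Trem2 and of other receptors of myeloid cells. It had 10.2, 7.31, 9.93, 7.17 and 9.24 CPM in acute input, against 2.08, 2.23, 3.35, 1.63 and 2.34 CPM in healthy input. Every acute library exceeded every healthy one. Tyrobp rose by 1.91 ± 0.22, or 3.76-fold (edgeR quasi-likelihood test, adjusted p = 9.01e-06), and it passed in all 19 alternatives.

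Trem2, the receptor that signals through Tyrobp, had 5.99, 4.55, 5.10, 4.19 and 7.11 CPM in acute input, against 4.73, 3.38, 4.76, 4.88 and 3.59 CPM in healthy input. The groups overlapped, and the log2 change of 0.33 ± 0.27 did not pass (edgeR quasi-likelihood test, adjusted p = 0.443). The ratio of Trem2 to Tyrobp, both as CPM per kilobase of exon, was 0.0701 ± 0.0108 in acute input and 0.222 ± 0.0776 in healthy input, with ranges of 0.0586 to 0.0878 and 0.162 to 0.342.

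Cst7, which encodes the lysosomal protease inhibitor cystatin F, was nearly undetected in healthy cortex. It had 3.81, 1.21, 3.17, 1.41 and 1.40 CPM in acute input, against 0, 0.0519, 0.0523, 0 and 0.0520 CPM in healthy input. Those are 245 counts over the acute libraries and 3 over the healthy ones, so the pooled ratio was 69.0 with an exact 95% interval of 23.3 to 337, which covers counting error only. The test across all genes gave an adjusted p of 0.000153 (edgeR quasi-likelihood test), and the call passed in all 19 alternatives.

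Itgax (CD11c), an integrin subunit of activated microglia and of dendritic cells, was also scarce. It had 0.890, 0.674, 0.735, 0.249 and 1.06 CPM in acute input, against 0.142, 0, 0.105, 0.254 and 0 CPM in healthy input. Acute replicate 4, with 0.249 CPM, lay just under the highest healthy library, so the groups overlapped. The log2 change was 2.75 ± 0.62 (edgeR quasi-likelihood test, adjusted p = 0.00339), on 82 counts in acute and 10 in healthy input.

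Cd68, a glycoprotein of the lysosome membrane, had 4.40, 4.15, 4.73, 2.90 and 4.84 CPM in acute input, against 3.31, 2.08, 4.76, 3.21 and 3.48 CPM in healthy input. The log2 change of 0.32 ± 0.21 did not pass (edgeR quasi-likelihood test, adjusted p = 0.312), and the groups overlapped.

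Aif1 (IBA1), the actin-binding protein stained to show microglia and macrophages, had 11.2, 10.8, 14.3, 8.91 and 10.9 CPM in acute input, against 5.01, 4.93, 3.76, 3.82 and 3.90 CPM in healthy input. The groups did not overlap. Aif1 rose by 1.38 ± 0.16 on the log2 scale, or 2.60-fold (edgeR quasi-likelihood test, adjusted p = 3.6e-06), and it passed in all 19 alternatives.

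**Figure D2:**
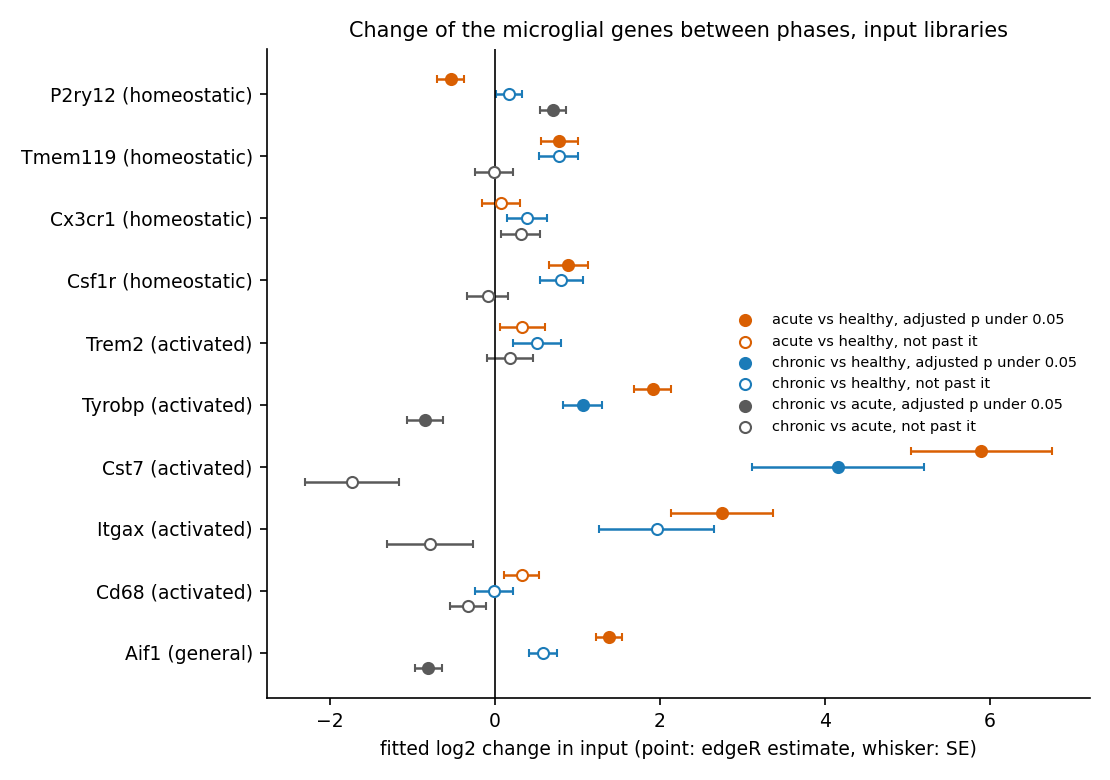
Fitted log2 change of each microglial gene in input (edgeR estimate, with the SE as a whisker) for acute against healthy, chronic against healthy and chronic against acute libraries; filled points passed an adjusted p of 0.05. In acute input 6 genes lie to the right of 0 with a filled point and P2ry12 alone lies to the left, and the values for Cst7 against healthy rest on a healthy group with 3 counts in all.

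Chronic input was set against the same 5 healthy libraries as acute input, so the 2 contrasts share them. Against healthy input, 2 of the 10 members rose, Tyrobp and Cst7, and none fell, where 2.33% of all genes were called higher. The median log2 change over the members was 0.67, against 0.00 over all genes. At an unadjusted p under 0.05 there were 6 members, beside 2310 of all 16381 genes. The DESeq2 Wald test called 4 members (with Tmem119 and Aif1) and 706 genes in all, and voom called 1 member. Both calls were lost without chronic replicate 4, where edgeR called 0 members, and 250 genes in all in place of 449. They were also both lost without healthy replicate 1, 2, 4 or 5.

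Tyrobp had 3.96, 4.41, 3.29 and 7.69 CPM in chronic input, with a mean of 4.84 ± 1.95 CPM (SD, n = 4) against 2.33 ± 0.632 CPM in healthy input (n = 5). Replicate 4 was the highest, and the lowest chronic library was under the highest healthy one, so the groups overlapped. The log2 change was 1.06 ± 0.24 (edgeR quasi-likelihood test, adjusted p = 0.0202). Without chronic replicate 4 it was 0.74, with an adjusted p of 0.0957. Leaving out healthy replicate 1, 2, 4 or 5 also lost the call, with adjusted p-values of 0.0651, 0.0561, 0.0559 and 0.0543, in a range of 0.000781 to 0.0957 over 19 alternatives.

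Cst7 had 0.208, 0.144, 0.449 and 1.76 CPM in chronic input, all above the 0 to 0.0523 CPM of healthy input. Chronic replicate 4 held 36 of the 52 counts, and the fitted log2 change was 4.16 with it and 2.90 without it. The pooled ratio, on 52 and 3 counts, was 21.2 with an exact 95% interval of 6.86 to 106 for counting error, and the adjusted p was 0.0438 (edgeR quasi-likelihood test). The adjusted p was 0.16 without chronic replicate 4, 0.0624 without chronic replicate 3 and 0.0548 without acute replicate 4, which shares the spread estimate. It was 0.0799 to 0.117 without any 1 healthy replicate, and the call held in 8 of 19 alternatives with a range of 0.00106 to 0.16.

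The other members did not pass against healthy input. Tmem119 (log2 change 0.77 ± 0.24, adjusted p = 0.115), Csf1r (0.80 ± 0.26, 0.144) and Aif1 (0.58 ± 0.17, 0.0815) were the nearest to the threshold. Tmem119 passed without chronic replicate 2 (adjusted p = 0.042, range 0.0258 to 0.378 over the alternatives), and Aif1 without chronic replicate 1 (0.0297) and with no filter on low counts (0.0479, range 0.0297 to 0.34). Itgax (1.96 ± 0.70, 0.177), Trem2 (0.51 ± 0.29, 0.464), Cx3cr1 (0.39 ± 0.24, 0.515), P2ry12 (0.17 ± 0.16, 0.698) and Cd68 (-0.0182 ± 0.23, 0.983) did not. These adjusted p-values are from edgeR's quasi-likelihood test.

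Chronic replicate 4 was the highest chronic library for 9 of the 10 members, all but Cd68. Its ratio to the mean of the other 3 chronic libraries ran from 1.15 for Cd68 to 6.60 for Cst7, with 2.64 for Trem2 (11.3 against 4.29 CPM) and 2.03 for Csf1r (24.9 against 12.3 CPM). It was also the chronic library with the highest sum over the 8 monocyte genes (26.2 CPM, against 17.7 to 19.2 CPM in the others) and over the 8 border macrophage genes (19.1 CPM, against 12.8 to 15.2 CPM). The same held for the further homeostatic genes (176 CPM, against 126 to 138 CPM) and further activated genes (1760 CPM, against 938 to 987 CPM) described below. Sums of neutrophil genes (3.43 CPM, against 2.02 to 2.65 CPM) and lymphocyte genes (19.9 CPM, against 7.39 to 14.7 CPM) were also highest in this library. The part of the cells of these lists in the members' values was not tested.

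Set directly against acute input, chronic input had P2ry12 higher and Tyrobp and Aif1 lower. Over all genes, 2.95% were called higher and 4.74% lower in this contrast, against 1 and 2 of the 10 members. P2ry12 had 9.16, 6.62, 5.94 and 10.1 CPM in chronic input, every value above the highest acute one of 5.61 CPM. The log2 change was 0.70 ± 0.16 (edgeR quasi-likelihood test, adjusted p = 0.0119, passed in 19 of 19 alternatives).

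Aif1 had 4.63, 5.71, 6.89 and 8.23 CPM in chronic input, every value below the lowest acute one of 8.91 CPM. It fell by 0.81 ± 0.16 on the log2 scale relative to acute (edgeR quasi-likelihood test, adjusted p = 0.00445, passed in 19 of 19 alternatives). Tyrobp fell by 0.85 ± 0.22 (adjusted p = 0.0246), with chronic replicate 4 at 7.69 CPM above the lowest acute library. That call was lost in 6 of 19 alternatives, 5 of them leaving out acute replicate 1 or 3 or chronic replicate 1, 2 or 3, with adjusted p-values of 0.0545, 0.0592, 0.0815, 0.0771 and 0.0794 in a range of 0.00126 to 0.0815.

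Cst7 had a log2 change of -1.74 ± 0.57 between chronic and acute input that did not pass (edgeR quasi-likelihood test, adjusted p = 0.073). Without chronic replicate 4 it was -3.01, with an adjusted p of 0.00163 (range 0.00163 to 0.173 over the alternatives), and the DESeq2 Wald test and voom also called it (0.0368 and 0.0163). Tmem119, Csf1r, Cx3cr1, Trem2, Itgax and Cd68 did not pass, with adjusted p-values of 0.389 to 0.98.

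Per kilobase of annotated exon, the order of the members changed with phase. Tyrobp was first in every input group, with 15.6 ± 2.57 CPM per kilobase in acute, 8.58 ± 3.47 in chronic and 4.12 ± 1.12 in healthy input. P2ry12 was second in healthy input at 2.98 ± 0.411 CPM per kilobase, within the spread of Aif1 (2.80 ± 0.411), Cx3cr1 (2.69 ± 0.516) and Cd68 (2.68 ± 0.759), and eighth of 10 in acute input at 2.05 ± 0.300. Aif1 was second in acute input at 7.32 ± 1.27 CPM per kilobase, apart from Tmem119, Csf1r, Cd68 and Cx3cr1, which lay between 3.61 and 2.84 and did not differ beyond their spread. In chronic input Aif1, Tmem119, Cx3cr1, P2ry12, Csf1r and Cd68 (4.15 to 2.64 CPM per kilobase) overlapped in spread. Itgax was last in all 3 input groups, at 0.179, 0.101 and 0.0248 CPM per kilobase in acute, chronic and healthy input. In healthy input that rank rests on 10 counts of Itgax and 3 of Cst7 (0.0317 ± 0.0289 CPM per kilobase), which lay within each other's spread, and in chronic input the libraries of both overlapped (Cst7 at 0.65 ± 0.77). Trem2, Csf1r, Itgax and Cx3cr1 have the longest merged exons of the members, at 4946, 4885, 4045 and 3742 bases, which lower their levels on this scale.

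Ratios within a library show the unequal changes without reference to library size. The ratio of Tyrobp to P2ry12 per kilobase was 9.81, 6.10, 10.7, 5.57 and 6.95 in acute input and 1.82, 2.81, 2.34 and 3.21 in chronic input, against 1.34, 1.42, 1.60, 1.01 and 1.49 in healthy input. The 3 phases did not overlap: acute was highest, chronic between and healthy lowest. Csf1r to P2ry12 gave the same order without overlap between acute or chronic and healthy, at 1.67 ± 0.371, 0.934 ± 0.234 and 0.608 ± 0.0672 in acute, chronic and healthy input. Tyrobp and Csf1r were already called higher and P2ry12 lower in acute input. The separation of acute from healthy libraries in both ratios repeats those calls. P2ry12 to Cx3cr1, a ratio between homeostatic genes, was 0.760 ± 0.215, 0.977 ± 0.140 and 1.12 ± 0.131 in acute, chronic and healthy input, with overlapping ranges of 0.553 to 1.05, 0.802 to 1.13 and 0.936 to 1.29.

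**Figure D3:**
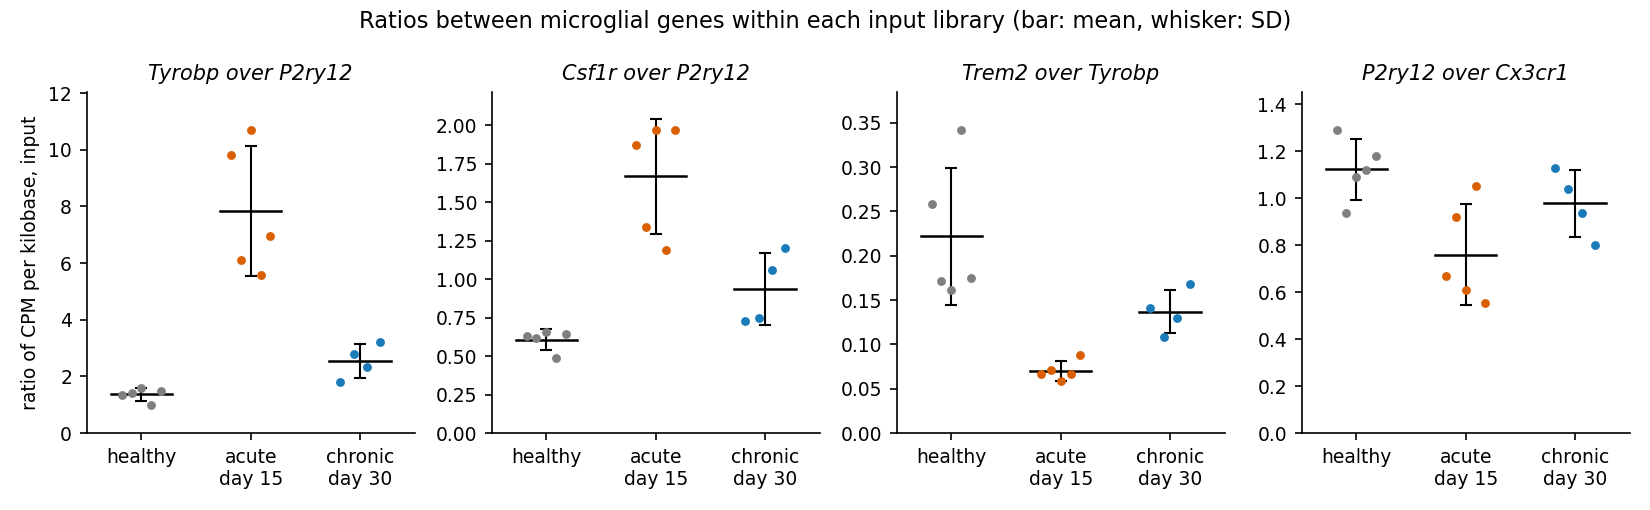
Ratios of CPM per kilobase between pairs of microglial genes within each input library (linear axes from 0), by phase, with the mean as a bar and the SD as a whisker. Tyrobp over P2ry12 separates the 3 phases, from 1.01 to 1.60 in healthy through 1.82 to 3.21 in chronic to 5.57 to 10.7 in acute libraries, while P2ry12 over Cx3cr1 overlaps between them. Tyrobp and P2ry12 were themselves called in opposite directions in acute against healthy input.

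Over the 14 input libraries, members were also compared by shape, as the root mean square difference of their log2 CPM (prior count 2) after each gene's own healthy mean was taken off. Tmem119 and Csf1r were the closest pair at 0.13, and Cx3cr1 and Trem2 were next at 0.29. Among 12382 other genes, those most like Tyrobp included Ctsc (0.269), Fcgr1 (0.274), Pycard (0.274) and C1qc (0.278), where the median gene stood at 1.308. Those most like P2ry12 were Mcam (0.157), Rpl19-ps11 (0.174), Slc12a2 (0.177), Il1rapl1 (0.184) and Ano3 (0.185), where the median was 0.424. Rpl19-ps11 is a pseudogene that may share reads with Rpl19, and all points share their libraries, so the likeness is a description.

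The partners of Trem2 and Tyrobp in signalling rose together with Tyrobp in acute input. Of 10 listed, 9 were tested and all 9 rose (median log2 change 1.15), with 11.1% of all genes as background. Lyn, a Src family kinase, rose by 1.47 ± 0.16 on the log2 scale (edgeR quasi-likelihood test, adjusted p = 2.74e-06), Fcer1g, the Fc receptor gamma chain, by 1.73 ± 0.26 (0.000128) and the phospholipase gene Plcg2 by 1.08 ± 0.17 (0.000167). In chronic input 6 of 9 rose against healthy (median 0.88), among them Lyn by 1.0 ± 0.17 (adjusted p = 0.00281). Between chronic and acute input 1 of 9 fell and none rose.

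Of 8 transcription factors of microglia, 6 rose in acute input, with a median log2 change of 1.0. Irf8 rose by 1.84 ± 0.14 (edgeR quasi-likelihood test, adjusted p = 7.59e-08), Spi1 (PU.1) by 1.64 ± 0.14 (1.88e-07), Irf5 by 1.38 ± 0.16 (6.23e-06) and Cebpa by 0.74 ± 0.10 (1.83e-05). Against healthy, 4 of 8 rose in chronic input, with Irf8 at 1.02 ± 0.15 (adjusted p = 0.000945) and Spi1 at 0.91 ± 0.15 (0.00237). Against acute, 5 of 8 fell in chronic input (median -0.63), Irf8 by 0.82 ± 0.14 (0.0017) and Spi1 by 0.73 ± 0.14 (0.00389).

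Of the ligands, Csf1, 1 of the 2 ligands of Csf1r, rose by 0.67 ± 0.16 in acute input (edgeR quasi-likelihood test, adjusted p = 0.00743). Il34, the other ligand, had a log2 change of 0.07 ± 0.08 (adjusted p = 0.536), Cx3cl1, the ligand of Cx3cr1, one of 0.05 ± 0.12 (0.809) and Tgfb1 one of 0.57 ± 0.25 (0.12). In chronic input 0 of the 5 tested ligands were called against healthy.

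Of 12 further homeostatic genes, 4 rose and none fell in acute input (median 0.30). Olfml3 rose by 1.07 ± 0.21 (edgeR quasi-likelihood test, adjusted p = 0.00103), Selplg by 0.84 ± 0.24 (0.0193) and the phagocytic receptor Mertk by 0.74 ± 0.21 (0.0217). In chronic input none of the 12 was called against healthy (median 0.33).

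Of 16 further activated genes, 9 rose and 1 fell in acute input (median 0.88). Clec7a, a fungal pattern receptor of activated microglia, rose by 4.66 ± 0.50 on the log2 scale (edgeR quasi-likelihood test, adjusted p = 2.38e-06), on 223 counts in acute and 7 in healthy input. Lgals3 rose by 3.20 ± 0.37 (adjusted p = 6.76e-06), and the complement chains C1qb and C1qc by 2.44 ± 0.32 (0.000197) and 1.92 ± 0.28 (0.00047). Lpl, named after its value was seen, was the gene that fell, by 0.56 ± 0.17 (0.0319). In chronic input 3 of 16 rose against healthy (median 0.70), Clec7a by 3.74 ± 0.56 (adjusted p = 0.00113), Lgals3 by 1.88 ± 0.42 (0.0168) and C1qb by 1.64 ± 0.33 (0.0215).

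Markers of other myeloid cells moved in the same libraries. Of 8 monocyte genes 6 rose in acute input and 4 in chronic input against healthy, and their sum was 20.8 to 33.0 CPM in acute and 17.7 to 26.2 CPM in chronic input, against 11.2 to 14.6 CPM in healthy input. Ly6c2 and Chil3 had 0 counts in all healthy input libraries. Over a floor of 3 counts in the healthy group, Ly6c2 was at least 45.1-fold higher in acute and at least 6.93-fold higher in chronic input, although it may share reads with its close copy Ly6c1. Plac8, with 545 counts in acute and 3 in healthy input, had a pooled ratio of 154 (exact 95% interval 52.3 to 747, counting error). Ccr2, the chemokine receptor of inflammatory monocytes, rose by 2.41 ± 0.39 in acute and by 1.96 ± 0.42 in chronic input (edgeR quasi-likelihood test, adjusted p = 0.000185 and 0.012), and S100a4 by 2.30 ± 0.29 and 1.67 ± 0.31 (1.08e-05 and 0.00456).

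Of 8 border macrophage genes 4 rose in acute and 2 in chronic input, and their sum was 19.2 to 26.4 CPM in acute and 12.8 to 19.1 CPM in chronic input, against 8.84 to 11.6 CPM in healthy input. F13a1 rose by 1.78 ± 0.18 in acute input (edgeR quasi-likelihood test, adjusted p = 1.52e-06), and Stab1, Cbr2 and the mannose receptor Mrc1 by 1.30 to 1.36. The neutrophil genes S100a8 and S100a9, 2 of 6 listed and the 2 tested, rose in both phases, and the list summed to 2.36 to 10.3 CPM in acute and 2.02 to 3.43 CPM in chronic input, against 0.0473 to 0.415 CPM in healthy input. Ly6g, Retnlg, Mmp8 and Cxcr2 had 0 counts in healthy input. Clec10a, 1 of the 4 tested dendritic cell genes, rose by 1.04 ± 0.36 in acute input (adjusted p = 0.0456), and so did Lck, 1 of the 3 tested lymphocyte genes, by 0.66 ± 0.22 (0.0361). The sums of these lists overlapped between phases, at 19.0 to 22.5, 18.4 to 20.9 and 16.6 to 21.1 CPM for dendritic cells and 7.82 to 14.8, 7.39 to 19.9 and 8.65 to 19.3 CPM for lymphocytes in acute, chronic and healthy input. Of the other tested lymphocyte genes, Cd4 (-1.06 ± 0.37) and Cd79a (-0.04 ± 0.41) were not called in acute input. Cd3g did not enter the test. It had 51 counts in acute and 0 in healthy input, at least 14.4-fold higher over the floor of 3 counts. The part of all the cells of these lists in the rise of Tyrobp, Itgax, Aif1 and Csf1r was not tested.

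Genes of cell division rose in acute input for 4 of 9 tested, Mki67 by 0.97 ± 0.21, Top2a by 1.08 ± 0.25, Aurkb by 1.76 ± 0.42 and Cdk1 by 1.10 ± 0.31 (edgeR quasi-likelihood test, adjusted p = 0.00307, 0.00363, 0.0057 and 0.0168), and in chronic input for 0 of 9. Of 8 astrocyte genes 3 rose in acute input, Gfap by 2.20 ± 0.15 (adjusted p = 1.4e-06), Aldoc by 0.52 ± 0.06 and Aldh1l1 by 0.41 ± 0.10. In the other lists of 8, Mobp of oligodendrocytes rose by 0.34 ± 0.06, Ly6c1 of endothelial cells by 0.81 ± 0.18, and of the layer 5 genes Pou3f1 rose by 0.42 ± 0.06 and Etv1 fell by 0.30 ± 0.08.

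In IP, detection of the members varied among libraries of 1 phase, in acute IP from 0 to 10 of the 10. Of 140 values (10 genes in 14 libraries), 77 were 0 counts in IP, and of the 63 others none was between 1 and 5 counts; the smallest was 7. In input 4 of 140 values were 0, and 9 were between 1 and 5. IP acute replicate 3 had 0 counts for all 10 members, and IP acute replicate 1 had 0 for 9 of them beside 106 counts of Itgax. Only IP acute replicate 4 had counts for all 10. Genes of like level did the same: of 3664 genes between 2 and 12 CPM in healthy input, 0.409% to 70.0% were at 0 in an IP library and 0.0% in every input library. For counting error alone a count of 0 in IP allows up to 0.157 to 0.47 CPM, depending on the library, but zeros at such a share of genes of like level are more than counting error gives, so this does not bound the level.

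**Figure D4:**
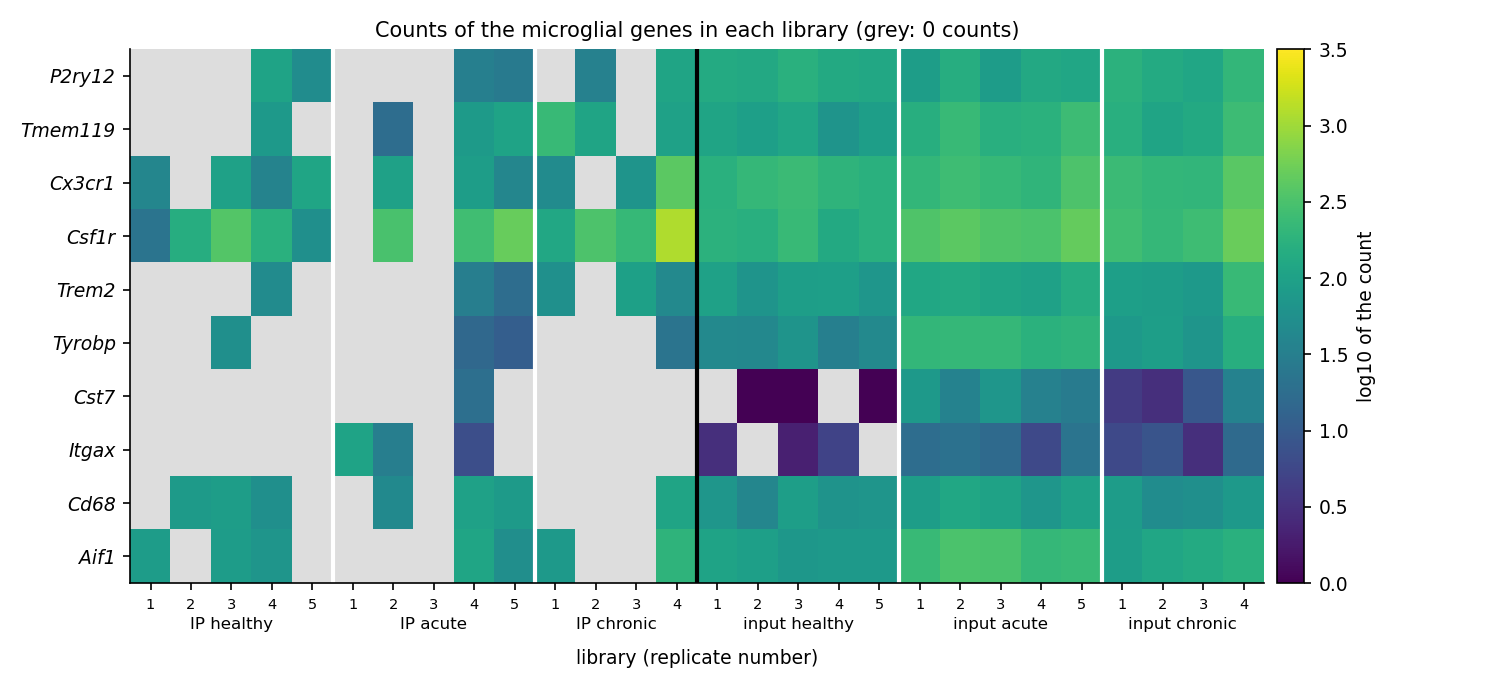
Counts of each microglial gene in every library on a log10 colour scale, with 0 counts in grey, IP libraries on the left and input libraries on the right of the black line, each in the order healthy, acute, chronic. Grey cells make up 77 of 140 in IP and 4 of 140 in input, and Csf1r is the member seen in most IP libraries.

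Csf1r was detected in 12 of 14 IP libraries, with 0, 16.8, 0, 14.2 and 31.6 CPM in acute IP, 8.84, 27.3, 20.3 and 67.7 CPM in chronic IP, and 1.26, 9.99, 20.7, 11.4 and 4.30 CPM in healthy IP. The phases overlapped, and its counts may again hold reads of Hmgxb3. Cx3cr1 was detected in 10 IP libraries, with up to 23.6 CPM in chronic replicate 4. P2ry12 was detected in 2 acute, 2 chronic and 2 healthy IP libraries, with a highest value of 7.21 CPM in healthy replicate 4. Tyrobp was detected in 2 acute, 1 chronic and 1 healthy IP library, at 0.786 and 0.720, 1.25 and 3.10 CPM.

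Cst7 was detected in IP acute replicate 4 alone, at 0.995 CPM (19 counts). Itgax was detected in 3 acute IP libraries, at 10.9, 1.64 and 0.367 CPM, and in no chronic or healthy IP library. The 10.9 CPM of acute replicate 1 exceeded every input library, of which the highest had 1.06 CPM. Tmem119 reached 15.7 CPM in chronic IP replicate 1, and Trem2, Cd68 and Aif1 ranged from 0 to 9.0, 6.29 and 10.8 CPM over the IP libraries.

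No member was called between phases in IP. Of the 10, 7 passed the filter there, and Tyrobp, Cst7 and Itgax did not. The edgeR quasi-likelihood test called 0 of 7 in acute against healthy, chronic against healthy and chronic against acute IP, and 0 at an unadjusted p under 0.05, while DESeq2 and voom also called 0. Of all 13914 genes tested, 871, 1494 and 1145 had an unadjusted p under 0.05, and 0.0647%, 0.187% and 0.0% were called. The largest fitted change, for Tmem119 in chronic against healthy IP, was 2.90 ± 2.37, and the SE of the members was 1.14 or more. Changes of this size were not detectable at this spread.

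Whether the change from healthy differed between IP and input was tested as an interaction. For acute EAE 0 of 10 members passed (1 at an unadjusted p under 0.05, Itgax, with an adjusted p of 0.188) and for chronic EAE 0 of 10 (0 at an unadjusted p under 0.05), by edgeR's quasi-likelihood test and by DESeq2 and voom. Of all 16580 genes, 1901 and 2734 had an unadjusted p under 0.05 for acute and chronic EAE, and 0.00603% and 1.03% were called.

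IP libraries were set against input libraries of the same phase to describe how far these genes, which are not markers of the tagged neurons, were present in the pull-down. The median change of all genes was -0.36, -0.32 and -0.23 on the log2 scale in acute, chronic and healthy mice, so the members' changes are to be read relative to it. For the members the medians were -2.30, -0.87 and -1.77. In acute mice 1 of the 10 members was lower, near the 10.1% of all genes, so the count did not set the members apart. That member was Tyrobp, at 0.301 ± 0.413 CPM in IP and 8.78 ± 1.45 CPM in input (log2 change -4.77 ± 1.67, edgeR quasi-likelihood test, adjusted p = 0.0431). The groups did not overlap, yet leaving out any 1 of the 5 acute pairs (IP and input of the same number) gave adjusted p-values of 0.0577 to 0.111, in a range of 5.02e-05 to 0.111.

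In chronic mice 2 of 10 members were lower, the same share as the 20.0% of all genes, so the count did not set the members apart. They were Cst7 and Itgax. Both had 0 counts in the 4 chronic IP libraries, against 3 to 36 counts of Cst7 and 3 to 16 of Itgax in chronic input (adjusted p = 0.0107 and 0.0291, edgeR quasi-likelihood test). No fold is given, since 20.6% to 58.1% of the genes between 2 and 12 CPM in healthy input were also at 0 in those IP libraries. Without chronic replicate 4 the adjusted p was 0.0658 for Cst7, and Itgax gave 0.0594 to 0.10 without any 1 of the 4 chronic pairs (ranges 0.00405 to 0.225 and 0.0134 to 0.277). In healthy mice edgeR called 0 of 10 members, where it called 14.4% of all genes lower. At an unadjusted p under 0.05 there was 1 member, beside 4917 of all 16580 genes. DESeq2 called 0 members, and voom called 4 members and 5857 genes in all. Leaving out the healthy pair with counts in IP raised a call for Tmem119 and Trem2 (pair 4, adjusted p = 0.00152 and 0.0021) and for Tyrobp (pair 3, 0.00519), against ranges of 0.00152 to 0.541, 0.0021 to 0.417 and 0.00519 to 0.659. In the same way Cst7 passed in acute mice without pair 4 (0.00116, range 0.00116 to 0.195), and Tyrobp and Cd68 in chronic mice without pair 4 (0.0153 and 0.0124, ranges 0.0105 to 0.24 and 0.0124 to 0.978).

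For comparison, 6, 6 and 5 of the 8 layer 5 genes were higher in IP in acute, chronic and healthy mice. Of all 16580 genes, 1420, 1449 and 1194 were higher. Fezf2 was higher by 2.07 ± 0.20, 1.68 ± 0.22 and 1.87 ± 0.20 (edgeR quasi-likelihood test, adjusted p = 5.37e-09, 1.49e-06 and 7.35e-08). In healthy mice Bcl11b (-0.24 ± 0.18), Etv1 (-0.12 ± 0.27) and Colgalt2, whose locus drives the tagged ribosome (0.36 ± 0.16), were not called. Of the 8 endothelial genes 0, 0 and 1 were higher. Their median log2 changes were 0.5, 0.92 and 1.28, beside 1.31, 1.15 and 0.88 for the layer 5 genes. In healthy mice the SE ran from 0.81 (Ly6c1) to 1.47 (Cdh5) for endothelial genes and from 0.13 (Nefh) to 0.27 (Etv1) for layer 5 genes. Of 16 further activated genes 2 were higher in each phase, and 3, 2 and 2 lower in acute, chronic and healthy mice. Cx3cl1, the chemokine that neurons present to Cx3cr1, was higher in IP by 1.26 ± 0.15, 1.21 ± 0.17 and 0.99 ± 0.15 on the log2 scale (adjusted p = 2.82e-07, 3.42e-06 and 2.16e-05). Monocyte genes summed to 0 to 14, 0.209 to 19.1 and 0 to 10.5 CPM in acute, chronic and healthy IP, and S100a8 and S100a9 were at 0 in chronic and healthy IP.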

How the data were processed

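Messenger RNA was measured by poly A RNA-seq in 28 libraries of mouse cortex, grouped by the fraction and phase in their titles. The deposited values are counts per gene, made with featureCounts 1.5.1 per the file headers, on exons of the Ensembl release 79 annotation and without strand; STAR 2.4, GRCm38 and DESeq2 are named in the submitters' processing notes. The header names 36 alignment files, of which 28 were analysed here. Symbols were matched for 42462 of 43629 genes (97.3%). RefSeq gave the promoters (GRCm38.p6).

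Counts were tested in R 4.3.3 with edgeR 4.0.16: filterByExpr (minimum count 10, minimum total 15), scaling by the trimmed mean of M values, robust quasi-likelihood F test, Benjamini-Hochberg adjustment over all genes of a fit, calls at an adjusted p under 0.05. Input (16381 genes) and IP (13914) were fitted apart for phases, and the 28 libraries jointly (16580) for the contrasts of IP with input and the interactions, 11 contrasts in all. Levels are CPM, as mean ± SD; log2 changes carry the SE; log2 CPM used a prior count of 2. Intervals and floors (3 counts) cover counting error only. Depth was 17848273 to 27915940 counts per input and 6198088 to 21229550 per IP library.

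Alternative settings were voom (limma 3.58.1) with library weights, a Wald test in DESeq2 1.42.0, size factors of DESeq2 in edgeR, all genes without a low-count filter, a replicate block and each replicate left out. Leaving out the 5 IP libraries with under 12000 genes detected was chosen after seeing the data. The members and lists were chosen with earlier results of these data known. Beside the members, the text names per list up to 4 genes, those with the lowest adjusted p in acute against healthy input, or 2 where none passed, and the 5 genes most like P2ry12 and Tyrobp. Some genes that this rule names are not reported here. Exon length came from the deposited table. The tests were tried on simulated data with planted changes. Figures used Python 3.11.15 and matplotlib 3.10.9.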

Additional observations from a re-analysis of the deposited data

Results flagged for a closer look

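Among 60 groups of values (10 genes in 6 groups of libraries), 56 had any spread, and in 11 the highest library lay further from its group than Dixon's 95% limit allows. Chance flags about 1 in 20 groups of normally spread values, a rate that does not hold for groups mostly at 0. In input these were P2ry12 in a healthy library (replicate 3, 8.83 CPM), Tmem119 and Cx3cr1 in acute replicate 5 (12 and 16.0 CPM) and Trem2 in chronic replicate 4 (11.3 CPM). The calls of P2ry12 and Tmem119 in acute against healthy input were lost without the library flagged for each, with adjusted p-values of 0.0522 and 0.0509 (edgeR quasi-likelihood test).

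The other 7 were in IP, where the single high library stood beside values at or near 0. They were Itgax in acute replicate 1 (10.9 CPM), Cst7 in acute replicate 4 (0.995 CPM), Tyrobp and Cd68 in chronic replicate 4 (1.25 and 6.29 CPM), Tmem119 and Trem2 in healthy replicate 4 (5.1 and 3.33 CPM) and Tyrobp in healthy replicate 3 (3.1 CPM). For all of these but Itgax, every other library of the group was at 0, so the flag was fixed by the zeros.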

How the results depend on the processing

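In input, the 7 members called in acute against healthy EAE were 7 under DESeq2's size factors, the DESeq2 Wald test, voom and the replicate block. In chronic against healthy input, the 2 members called became 4 with the DESeq2 Wald test, 1 with voom and 0 with the replicate block, and 0 to 3 with 1 library left out; the genes called were 706 with the DESeq2 Wald test and 250 to 528 with 1 library left out. Chronic against acute input gave 784 to 1395 genes with 1 library left out.
The labels give no shared origin for a replicate number, and not every same-numbered pair correlated over 0.1 (range -0.11 to 0.19), so the numbers were not taken to pair the libraries. As a weak hint from the data, IP libraries correlated best with the input of their own number in 2 of 5 acute, 3 of 4 chronic and 4 of 5 healthy pairs, against 0 of 5, 1 of 4 and 1 of 4 between input phases. Between IP phases it was 2 of 4 (acute with chronic), 1 of 5 (acute with healthy) and 2 of 4 (chronic with healthy). Under the replicate block the adjusted p of Tyrobp was 0.0703 in chronic against healthy and 0.0776 in chronic against acute input, and members called were 1 in IP against input of chronic mice (Tyrobp, 0.0453, with Cst7 at 0.0536 and Itgax at 0.0841) and 3 of healthy mice (Tmem119, Trem2 and Tyrobp, 0.0411, 0.0383 and 0.0496), with genes called of 2 (acute against healthy IP), 15 (chronic against healthy IP), 0 and 28 (interactions, acute and chronic).
IP counts moved most. Genes called in acute against healthy IP were 123 with the DESeq2 Wald test, 380 with voom, 1 without the 5 shallow IP libraries and 1 to 50 with 1 library left out. In chronic against healthy IP they were 54 with DESeq2's size factors, 287, 53, 2 and 9 to 118 in turn, and in chronic against acute IP 180 with the Wald test and 60 with voom. For IP against input, voom called 6856 genes and 5 members in acute and 5857 genes and 4 members in healthy mice; without the shallow libraries 5359, 7304 and 6736 genes were called in acute, chronic and healthy mice, and 1 member in healthy mice. With 1 pair left out members called ran from 0 to 1, 1 to 2 and 0 to 2. The acute interaction gave 363 genes with the Wald test, 246 with voom, 1934 without the shallow libraries and 0 to 287 with 1 pair left out, and the chronic one 958, 66, 2111, 43 to 408 and, with no filter, 47.
No called member changed sign. Of uncalled members, these did, and the cause was not tested. Under the block Cd68 was 0.035 (chronic against healthy input), Tmem119 0.059 (chronic against acute input), Itgax -0.40 (acute IP against input) and Csf1r -0.32 (healthy IP against input). Under voom Trem2 was -0.033 (chronic against acute input), Csf1r 0.13 and Itgax -1.73 (acute IP against input). Without the shallow libraries Csf1r was 0.44 and Cd68 0.16 (acute), Tmem119 0.41, Cx3cr1 0.06 and Aif1 0.38 (chronic) and Cd68 0.10 (healthy IP against input). With 1 library or pair left out, log2 changes crossed 0 for Cx3cr1 (-0.11 to 0.18, acute against healthy input), Trem2 (-0.00096 to 0.68) and Cd68 (-0.18 to 0.14) in chronic against healthy input, Tmem119 (-0.29 to 0.15), Csf1r (-0.43 to 0.063) and Trem2 (-0.33 to 0.35) in chronic against acute input, Itgax (-0.38 to 2.33, acute), Tmem119 (-0.73 to 0.27) and Trem2 (-1.64 to 0.011, chronic), and Csf1r (-0.27 to 0.38) and Cd68 (-0.74 to 0.082, healthy) in IP against input. Few counts limit Cst7 and Itgax in input. In IP, zeros also stood in libraries as deep as input: healthy replicate 1, with 17630754 counts, had 7 of 10 members at 0, against 0 of 10 in input healthy replicate 3 with 17848273.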
